A study of Homo sapiens with 3 samples.

Results

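The comparison described here sets SETD8 siRNA 2 against SETD8 siRNA 1 in IMR-90 cells, a line of human fetal lung fibroblasts. It uses 2 of the 3 arrays of the study, and the remaining array, from cells given a control siRNA labelled GL3, serves to say which of the SETD8 siRNAs departed from it. All 3 siRNAs were introduced with the lipid reagent RNAiMAX for 24 h, in cells grown with serum, and total RNA was read on 1-colour Affymetrix arrays. The siRNAs labelled SETD8-1 and SETD8-2 are directed against the same gene, SETD8, whose current symbol is KMT5A, and their sequences were not used here. Each siRNA stands on 1 array. No value therefore has a replicate error, no p-value is given, and a difference between the siRNAs cannot be told apart from a difference between the dishes or arrays that carried them.

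The question put by a pair of siRNAs against 1 target is which changes they share and which belong to either alone, and only the second is described. KMT5A, also called PR-Set7, places the single methyl group on lysine 20 of histone H4, a mark that is needed for chromosome compaction and for an orderly start of DNA replication. Fibroblasts are the matrix-building cells of connective tissue. They also carry a contractile programme run by the factors SRF and YAP and an inflammatory programme run by NF-kappaB, interleukin 1 and interferon.

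Of 19775 genes with a probe set, 12333 passed a filter on low signal and were compared. Values are linear signals, each gene was read from its brightest probe set over both SETD8 siRNA arrays, and signals under a floor of 11.7 were set to it. A gene was kept if its mean signal reached 42.8, the median over probe sets. That mean was taken over the same arrays that are compared. A gene low on one of them could therefore pass through a high signal on the other. Differences are log2 differences in signal, siRNA 2 minus siRNA 1, and folds are ratios of the same signals. A gene is counted as apart when the signals differ at least 2-fold.

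Over all genes compared, 1532 (12.4%) were at least 2-fold apart, 748 (6.07%) of them higher and 784 (6.36%) lower with SETD8 siRNA 2. The difference of the median gene was 0.33 in size, and the median over all genes was -0.004. The large differences lay mostly on the lower side: 90 genes were at least 8-fold lower with siRNA 2 against 44 at least 8-fold higher, and 17 against 4 were at least 32-fold apart. The share of genes at least 2-fold apart depended on signal, from 19.9% in the dimmest quartile (mean signals of 42.8 to 177.6) to 7.04% in the brightest (from 2107.3 upward). A 2-fold difference of a dim gene is thus common on these arrays, and dim genes are read with that share beside them.

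A second probe set of the same gene offers a check within the arrays, though not a replicate. Of the genes at least 2-fold lower with siRNA 2, 318 had a second probe set above the filter, and it had the same sign in 297 (93.4%) and was at least 2-fold lower in 201 (63.2%). Among those at least 2-fold higher, 286 of 296 (96.6%) had the same sign and 198 (66.9%) were at least 2-fold higher. For genes at least 4-fold apart, 80 of 84 on the lower side and 52 of 60 on the higher side were also 2-fold apart on the second probe set.

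**Figure D1:**
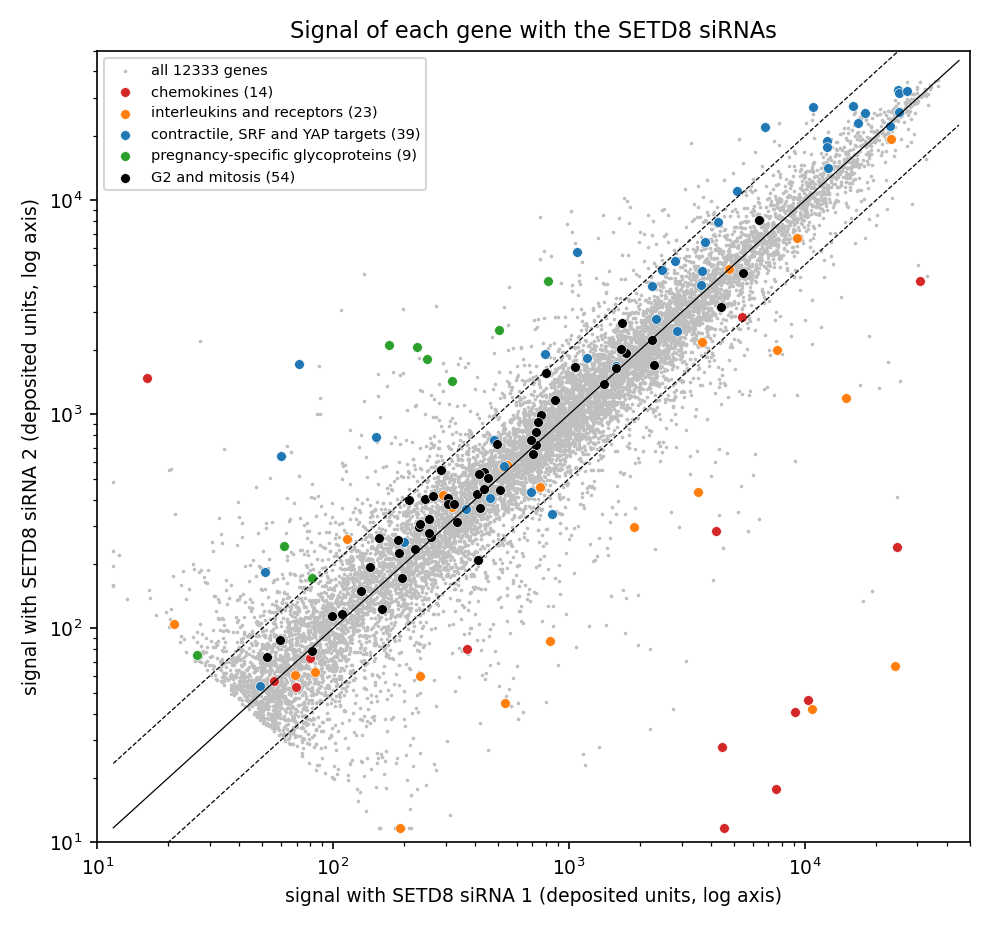
Signal of each of the 12333 genes with SETD8 siRNA 1 (horizontal, log axis) and SETD8 siRNA 2 (vertical, log axis), 1 array each, with 5 gene lists in colour; the solid line marks equal signal and the dashed lines 2-fold. Most chemokines lie far below the lines, all 9 pregnancy-specific glycoprotein genes lie above them, and all 54 G2 and mitosis genes stay between them.

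The control array shows which siRNA a difference came with. Of the 784 genes lower with siRNA 2, 327 (41.7%) were at least 2-fold from the control with siRNA 1 only and 163 (20.8%) with siRNA 2 only. A further 39 were apart from the control in opposite directions, 70 in the same direction, and 185 were 2-fold from it with neither. Of the 748 genes higher with siRNA 2, 244 (32.6%) were at least 2-fold from the control with siRNA 1 only and 192 (25.7%) with siRNA 2 only. SETD8 siRNA 1 was the array farther from the control for 503 of the 784 lower genes (64.2%) and for 426 of the 748 higher genes (57%). Both comparisons use the same control array, so they are given side by side only. The plot of these classes shows siRNA 1 as the largest single class in both directions.

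**Figure D2:**
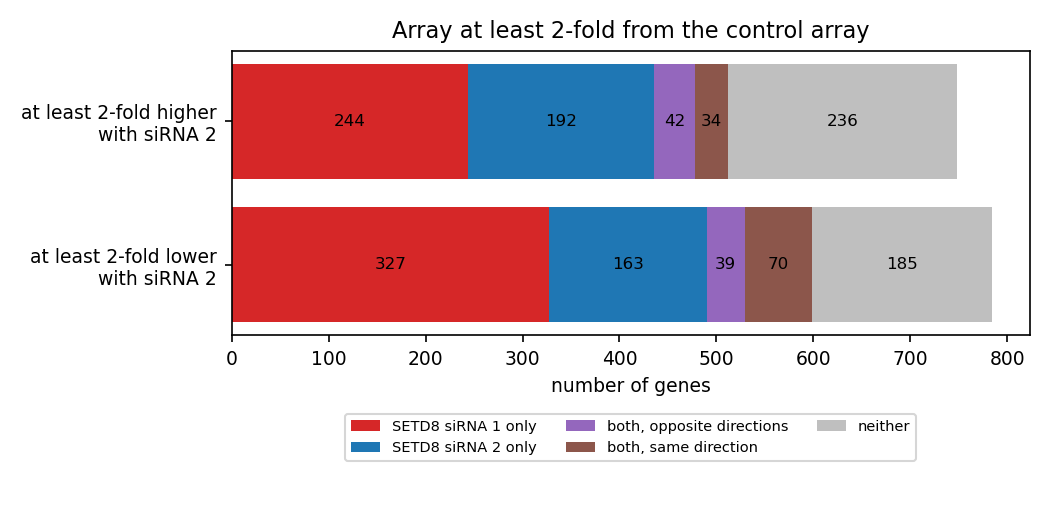
Number of genes at least 2-fold higher (748) or lower (784) with SETD8 siRNA 2 than with SETD8 siRNA 1, divided by which array lay at least 2-fold from the control array. SETD8 siRNA 1 alone accounts for 244 and 327 genes, SETD8 siRNA 2 alone for 192 and 163, and the grey bars are genes within 2-fold of the control with both.

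The target itself was a little less reduced with siRNA 2. On its brightest probe set KMT5A measured 938.9 in the control, 431.4 with siRNA 1 and 584.1 with siRNA 2, a difference between the SETD8 siRNAs of 0.44. Its 3 other probe sets gave differences of 0.04, 0.21 and 0.33. All 4 probe sets were lower than the control with both siRNAs, and all 4 were slightly higher with siRNA 2 than with siRNA 1, by less than 2-fold. Of 18 genes tested in the list of KMT5A and H4K20 genes, none but CDT1 and DTL were 2-fold apart, and 15 were above 0. DTL, the CRL4 substrate receptor that marks KMT5A for degradation, had signals of 2502.3 in the control and 234.6 with siRNA 1 and was 2.40-fold higher with siRNA 2. CDT1, a licensing factor degraded by the same ligase, had 1364.5 in the control, 63.6 with siRNA 1 and 217.3 with siRNA 2. On these probe sets both were lower than the control with either siRNA and lower still with siRNA 1. The second, dim probe set of CDT1 had 94.1, 69.3 and 55.6, a difference of -0.32 in the other direction. With a gene's probe sets averaged the differences were under 2-fold, 0.96 for DTL and 0.73 for CDT1.

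The arrays carried the fibroblast label. Of 19 lung fibroblast markers 17 passed the filter, their summed signal was 180716.2 in the control, 178089.0 with siRNA 1 and 189955.8 with siRNA 2, and the collagen gene COL1A1 had 33451.1, 36638.9 and 34357.1. TWIST1, a mesenchymal transcription factor, was 3.49-fold lower with siRNA 2, while the small proteoglycan genes DCN (2.97-fold) and LUM (2.22-fold) were higher. Of 18 epithelial markers with a probe set 7 passed the filter, and the summed signals of 8736.8, 16179.6 and 19977.0 were mostly those of CLDN1 and KRT18, while CDH1, the epithelial cadherin, stayed at 18.1, 23.4 and 17.7. EPCAM had 157.1, 49.1 and 194.2, a difference of 1.98, KRT18 had a difference of 1.02 and KRT7 one of -1.02. The rest of the 7 were not 2-fold apart. Of 11 endothelial markers 4 passed, with summed signals of 1504.0, 2187.6 and 2287.2, and CDH5 and EMCN were below the floor on all arrays. Of 9 leukocyte markers with a probe set 3 passed, with sums of 267.8, 311.4 and 302.5. Endothelial ROBO4 stood out at 105.3, 576.4 and 58.5, and PECAM1 had 49.0, 135.0 and 52.7, but its second probe set had a difference of 0.23. TEK, the brightest endothelial marker, went the other way with 1251.3, 1274.8 and 2033.1, a difference of 0.67. In these bulk samples, a gene expressed in fewer cells and a gene with less RNA per cell cannot be told apart.

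The genes were described in 43 lists. The list median was -0.5 or lower in 7 lists and 0.5 or higher in 2, against -0.004 over all genes, and lay in between in 34. On the lower side were chemokines, interleukins, NF-kappaB genes, metalloproteinases and interferon-stimulated genes, together with the few endothelial and leukocyte markers. Pregnancy-specific glycoprotein genes and contractile genes made up the higher side. Over all lists 1086 genes were tested, 170 of them lower and 92 higher with siRNA 2 by at least 2-fold. The other 614 lower and 656 higher genes lay outside them. Counts within a list are read against the shares over all genes, 6.36% lower and 6.07% higher. The strip plot of the lists shows how far single members stand from their list's median.

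**Figure D3:**
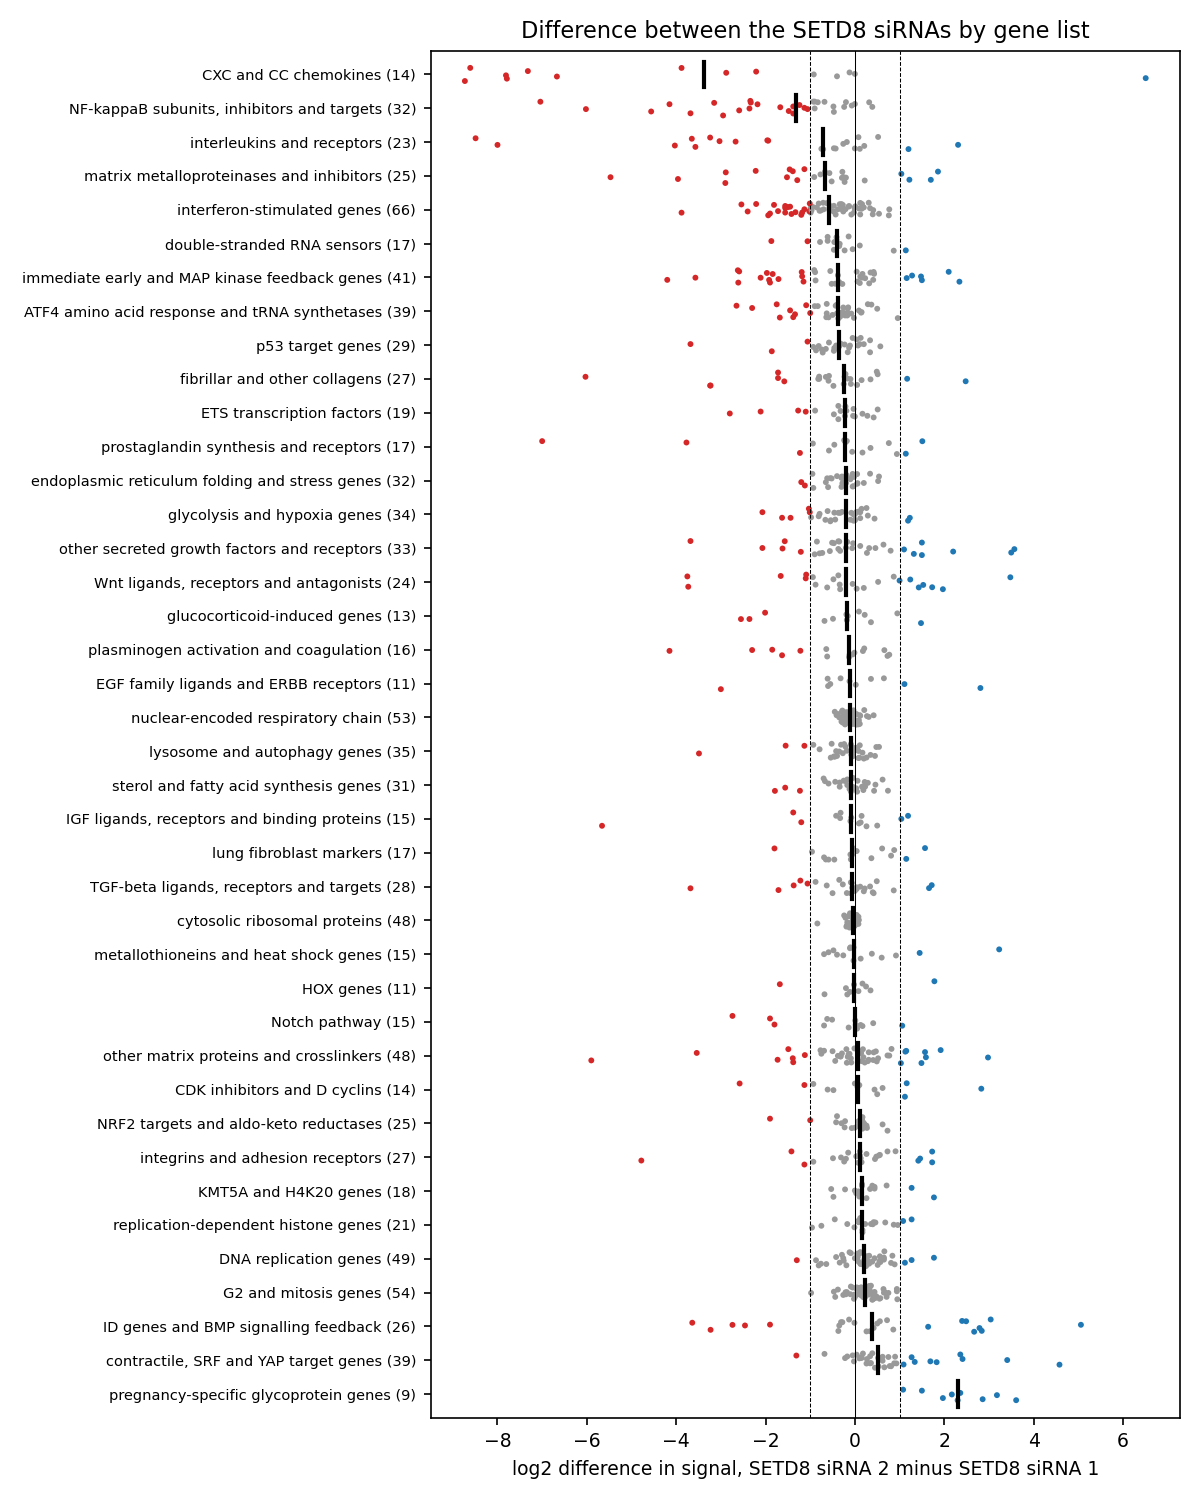
Log2 difference in signal (horizontal axis, SETD8 siRNA 2 minus SETD8 siRNA 1) of each tested member of the 40 lists with at least 9 tested genes; numbers in parentheses are tested genes, black bars are list medians, red points are at least 2-fold lower and blue points at least 2-fold higher with siRNA 2. Chemokines have the lowest median (-3.38) and pregnancy-specific glycoprotein genes the highest (2.30), while ribosomal protein and respiratory chain genes lie near 0.

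Chemokines are small secreted proteins that draw white blood cells into tissue. Among genes that passed the filter, they were the list farthest apart. Of 26 members, 14 passed the filter, and 9 of these were at least 2-fold lower and 1 at least 2-fold higher with siRNA 2, where 6.36% and 6.07% of all genes were. The median difference was -3.38, with a median of 4.06 against the control for siRNA 1 and 0.12 for siRNA 2. With the filter raised to the 75th percentile the median was -7.00 over 8 members, and without a filter it was -0.34 over 24. Members such as CCL20 (8.3 with siRNA 2) and CXCL12 (16.2 with siRNA 1) passed the filter only through the other array. The count and the median thus describe members selected in part by the difference itself.

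The group that attracts neutrophils through the receptor CXCR2 differed most. CXCL2 measured 22.8 in the control, 7577.2 with siRNA 1 and 17.8 with siRNA 2, a 426-fold difference between the SETD8 siRNAs. CXCL1 had 186.5, 24635.4 and 241.1 (102-fold), CXCL3 had 50.6, 9097.3 and 40.5 (225-fold), CXCL5 had 120.8, 10295.6 and 46.4 (222-fold), and CXCL6 had 29.3, 4464.5 and 28.0 (159-fold). In all of them only the siRNA 1 array was high, and the siRNA 2 array lay near the control or below it. CXCL1, CXCL2 and CXCL3 are near-identical, so their probe sets may share signal, and the weak second probe set of CXCL2 had a difference of -1.40, so that the mean over its probe sets was -3.65. CXCL8, the neutrophil chemokine also called interleukin 8, had 1779.7, 30857.2 and 4185.5 on its brightest probe set (7.37-fold), high on the control array already. Its second probe set had 355.9, 29971.6 and 733.9, a larger difference of -5.35.

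CCL20, which attracts cells bearing CCR6, was below the floor in the control (1.3) and with siRNA 2 (8.3) and had 4561.0 with siRNA 1, so that it was at least 390-fold lower with siRNA 2. The interferon-inducible CXCL10 had 260.9, 4211.6 and 285.7 (14.7-fold) and CXCL11 had 32.2, 369.6 and 80.0 (4.62-fold). CCL2, which attracts monocytes, differed less, with 2660.8, 5403.2 and 2852.5 (1.89-fold). The exception in direction was CXCL12, the homeostatic ligand of CXCR4, with 546.7 in the control, 16.2 with siRNA 1 and 1478.8 with siRNA 2. It was 91.3-fold higher with siRNA 2, the largest difference on the higher side, and its second probe set had a difference of 2.99. ACKR4, a scavenging receptor for other chemokines, was 17.7-fold higher (40.5, 12.4 and 219.2).

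All 8 tested chemokine genes of chromosome 4 were at least 2-fold lower with siRNA 2, and the promoters of 5 of them are printed here with 2 others of the same direction because they carry the same kind of motif. Each shows the 120 bases before the gene's start in RefSeq (GRCh38.p14), 5′ to 3′ on the gene's strand, with matches to the NF-kappaB motif in capitals.
CXCL1 (chr4:73869273-73869392, plus strand): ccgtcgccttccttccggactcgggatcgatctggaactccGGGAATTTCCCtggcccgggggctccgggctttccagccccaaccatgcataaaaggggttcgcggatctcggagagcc
CXCL2 (chr4:74099196-74099315, minus strand): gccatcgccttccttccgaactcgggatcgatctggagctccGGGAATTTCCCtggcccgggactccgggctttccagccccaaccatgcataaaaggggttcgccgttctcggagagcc
CXCL3 (chr4:74038690-74038809, minus strand): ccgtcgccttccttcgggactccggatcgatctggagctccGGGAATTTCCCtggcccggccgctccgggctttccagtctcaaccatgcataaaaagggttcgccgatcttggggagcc
CXCL5 (chr4:73998678-73998797, minus strand): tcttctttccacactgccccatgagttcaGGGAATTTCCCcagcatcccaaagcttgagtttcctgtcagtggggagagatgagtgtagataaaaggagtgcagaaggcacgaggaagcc
CXCL6 (chr4:73836558-73836677, plus strand): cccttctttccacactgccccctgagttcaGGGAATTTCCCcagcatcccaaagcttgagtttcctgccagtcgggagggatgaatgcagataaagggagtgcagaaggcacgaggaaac
CCL20 (chr2:227813722-227813841, plus strand): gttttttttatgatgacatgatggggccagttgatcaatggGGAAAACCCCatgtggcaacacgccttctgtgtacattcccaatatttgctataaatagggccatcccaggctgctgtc
IL6 (chr7:22727080-22727199, plus strand): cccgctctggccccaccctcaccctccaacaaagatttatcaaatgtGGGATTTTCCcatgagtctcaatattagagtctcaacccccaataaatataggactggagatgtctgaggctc

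In the 5 CXC promoters the capitals are the same run, GGGAATTTCCC, which holds 2 overlapping matches that start 1 base apart. The run begins 79, 78, 79, 91 and 90 bases before the start of CXCL1, CXCL2, CXCL3, CXCL5 and CXCL6. CCL20 has GGAAAACCCC at 79 bases and IL6 has GGGATTTTCC at 73 bases. Over the 250 bases before the start, read on both strands, the motif was found in 11 of 16 promoters (68.8%) of the chemokine and interleukin genes that were at least 2-fold lower, 3 of the 19 having no entry in the promoter table. The share over all 27305 genes with a promoter entry was 11.8%. CXCL8 had no match in that window. The 5 CXC promoters printed above, which hold the same run, are among the 11. The share in list members that were not lower was not computed. A match of letters is a description and does not show that a protein was bound.

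The list of interleukins was built around the interleukin 1 and interleukin 6 families and their receptors, and also holds others such as IL24, IL32, TSLP and IL13RA2. Of its 23 tested members, 10 were at least 2-fold lower and 2 at least 2-fold higher with siRNA 2, with a median of -0.71. IL1B, which encodes interleukin 1 beta, had 185.0 in the control, 24012.8 with siRNA 1 and 67.0 with siRNA 2 (358-fold), and its second probe set had a difference of -8.48. IL1A, which encodes interleukin 1 alpha, had 89.7, 10735.0 and 41.9 (256-fold), but its second probe set, near the floor on all arrays, had 0.15, so that the mean over its probe sets was -3.92. IL6, the acute-phase cytokine, had 752.6, 14925.4 and 1193.0 (12.5-fold). All 3 were far above the control with siRNA 1, and with siRNA 2 IL1A and IL1B were below it.

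CSF3, the granulocyte growth factor, was at least 16.4-fold lower (16.2, 191.3 and 4.5), IL24 was 11.9-fold lower (58.3, 533.0 and 44.9) and LIF, a ligand of the shared receptor gp130, was 8.15-fold lower (842.3, 3530.3 and 433.0). The decoy receptor gene IL13RA2 was 9.48-fold lower (189.6, 830.3 and 87.6). For TSLP the siRNA 2 array was the one that stood apart, with 1636.2 in the control, 1894.5 with siRNA 1 and 298.5 with siRNA 2, and the same held for IL32 (223.5, 234.2 and 60.1). The receptor chains IL6ST and OSMR differed by less than 2-fold, at 1.20-fold and 1.38-fold. Higher with siRNA 2 were IL18 (28.5, 21.1 and 104.9) and the receptor gene IL6R (190.4, 114.2 and 262.0), both of low signal.

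Of 32 tested genes of the NF-kappaB pathway, 19 were at least 2-fold lower with siRNA 2 and 0 were higher, with a median of -1.31. The median against the control was 1.07 for siRNA 1 and -0.21 for siRNA 2. The targets were far apart: TNFSF15, a ligand of the tumour necrosis factor family, had 163.9, 17619.4 and 133.7 (132-fold), and the survival gene BCL2A1 had 57.1, 2209.6 and 34.0 (65-fold). ICAM1, the adhesion molecule that leukocytes grip, had 349.2, 4335.3 and 337.1 (12.9-fold), and TNFAIP6, a hyaluronan-binding protein, had 729.8, 1964.1 and 83.4 (23.6-fold). TNFAIP6 stood more than 2-fold above the control with siRNA 1 and more than 2-fold below it with siRNA 2.

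Among feedback inhibitors of the pathway, TNFAIP3, the deubiquitinase A20, had 508.6, 2694.2 and 349.1 (7.72-fold), IRAK3 was 8.87-fold lower, and NFKBIA, the inhibitor IkappaB alpha, was 4.53-fold lower (2092.9, 5830.1 and 1287.3). Of the subunits, NFKB1, which encodes p105 and p50, had 552.9, 1278.6 and 490.3 (2.61-fold) and RELB had 173.6, 279.2 and 128.0 (2.18-fold). The kinase gene MAP3K8 was 17.7-fold lower and the inhibitor of cell death IER3 6.03-fold lower. CEBPD, a transcription factor of the acute-phase response, had 2399.8, 3481.9 and 676.6 (5.15-fold), and there it was the siRNA 2 array that lay more than 2-fold from the control. Among 15 of these lower genes with a promoter entry, 7 held the NF-kappaB motif (46.7%), against 11.8% of all genes. The list was made of pathway genes and known targets, and the share in its other members was not computed. The motif share therefore does not single out the genes that differed.

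The host transcript of a microRNA known as a brake on this pathway was in the same group. MIR146A was noticed after its values were seen, with 2.0 in the control, 1339.6 with siRNA 1 and 28.0 with siRNA 2 (47.8-fold). A second, dim probe set ran the other way at 47.7, 13.8 and 37.6. The arrays read the long transcript and not the mature microRNA, which is shown because its targets are receptor-proximal parts of the interleukin 1 pathway. The mature sequence in RefSeq lies at chr5:160485372-160485393 (GRCh38.p14, plus strand), and capitals mark the seed, bases 2 to 8.
hsa-miR-146a-5p: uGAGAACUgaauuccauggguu

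Of 17 tested prostaglandin genes, 3 were lower and 2 higher with siRNA 2, where 6.36% and 6.07% of all genes were. The median was -0.21. The 3 lower genes act in synthesis: PTGS2, the inducible cyclooxygenase, had 96.5, 19178.0 and 149.9 (128-fold), with -6.99 on its second probe set. PLA2G4A, the phospholipase that frees arachidonic acid, had 429.7, 1958.0 and 143.7 (13.6-fold), and PTGES, the inducible prostaglandin E synthase, had 108.9, 239.7 and 102.4 (2.34-fold). Other synthesis genes were not 2-fold apart, among them PTGS1, the constitutive cyclooxygenase (1.37-fold), and PTGES3 (1.16-fold). PTGER2, a prostaglandin E receptor, ran the other way and was 2.85-fold higher with siRNA 2 (2548.5, 292.7 and 833.3), both siRNAs lying below the control.

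Matrix metalloproteinases cut collagen and other matrix proteins, and their list also holds related ADAM and ADAMTS proteases and inhibitors. Of 25 tested members, 10 were at least 2-fold lower with siRNA 2 and 4 at least 2-fold higher. The median of -0.67 was -0.29 over the 15 members above the 75th percentile of signal and -0.45 with the mean over probe sets. MMP2 (-0.52), MMP9 (-0.77), MMP16 (-0.67), MMP19 (-0.29) and MMP25 (-0.57) were not 2-fold apart. The stromelysin MMP3 had 1416.8, 20538.7 and 1322.3 (15.5-fold) and MMP10 had 87.9, 1144.3 and 25.9 (44.2-fold). The collagenase MMP1 was high throughout, with 17604.0, 33063.8 and 4444.1 (7.44-fold), and was below the control with siRNA 2. All 5 members on chromosome 11, which also include MMP7 (7.43-fold) and MMP12 (4.65-fold), were at least 2-fold lower. TIMP3, a matrix-bound inhibitor, had 4769.1, 3849.1 and 12505.3 (3.25-fold higher), and RECK, a membrane-anchored inhibitor, had 5497.5, 2468.6 and 8967.4 (3.63-fold higher). TIMP1 and TIMP2, at 1.19-fold and 1.17-fold, were not 2-fold apart.

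Genes of plasminogen activation and coagulation had 5 of 16 tested members lower, 0 higher and a median of -0.13. TFPI2, a protease inhibitor, had 8445.0, 25348.5 and 1428.4 (17.7-fold), above the control with siRNA 1 and below it with siRNA 2. THBD, the thrombin receptor thrombomodulin, was 4.92-fold lower (6.9, 371.7 and 75.6) and PROCR, the protein C receptor, 2.33-fold lower. The tissue factor gene F3 stood at 1.03-fold. The activator gene PLAU stood at 1.09-fold on its brightest probe set, but its second probe set had 3460.3, 15048.3 and 6694.4, a difference of -1.17. In the plot of the lower genes by array, each gene's 3 signals are set side by side.

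**Figure D4:**
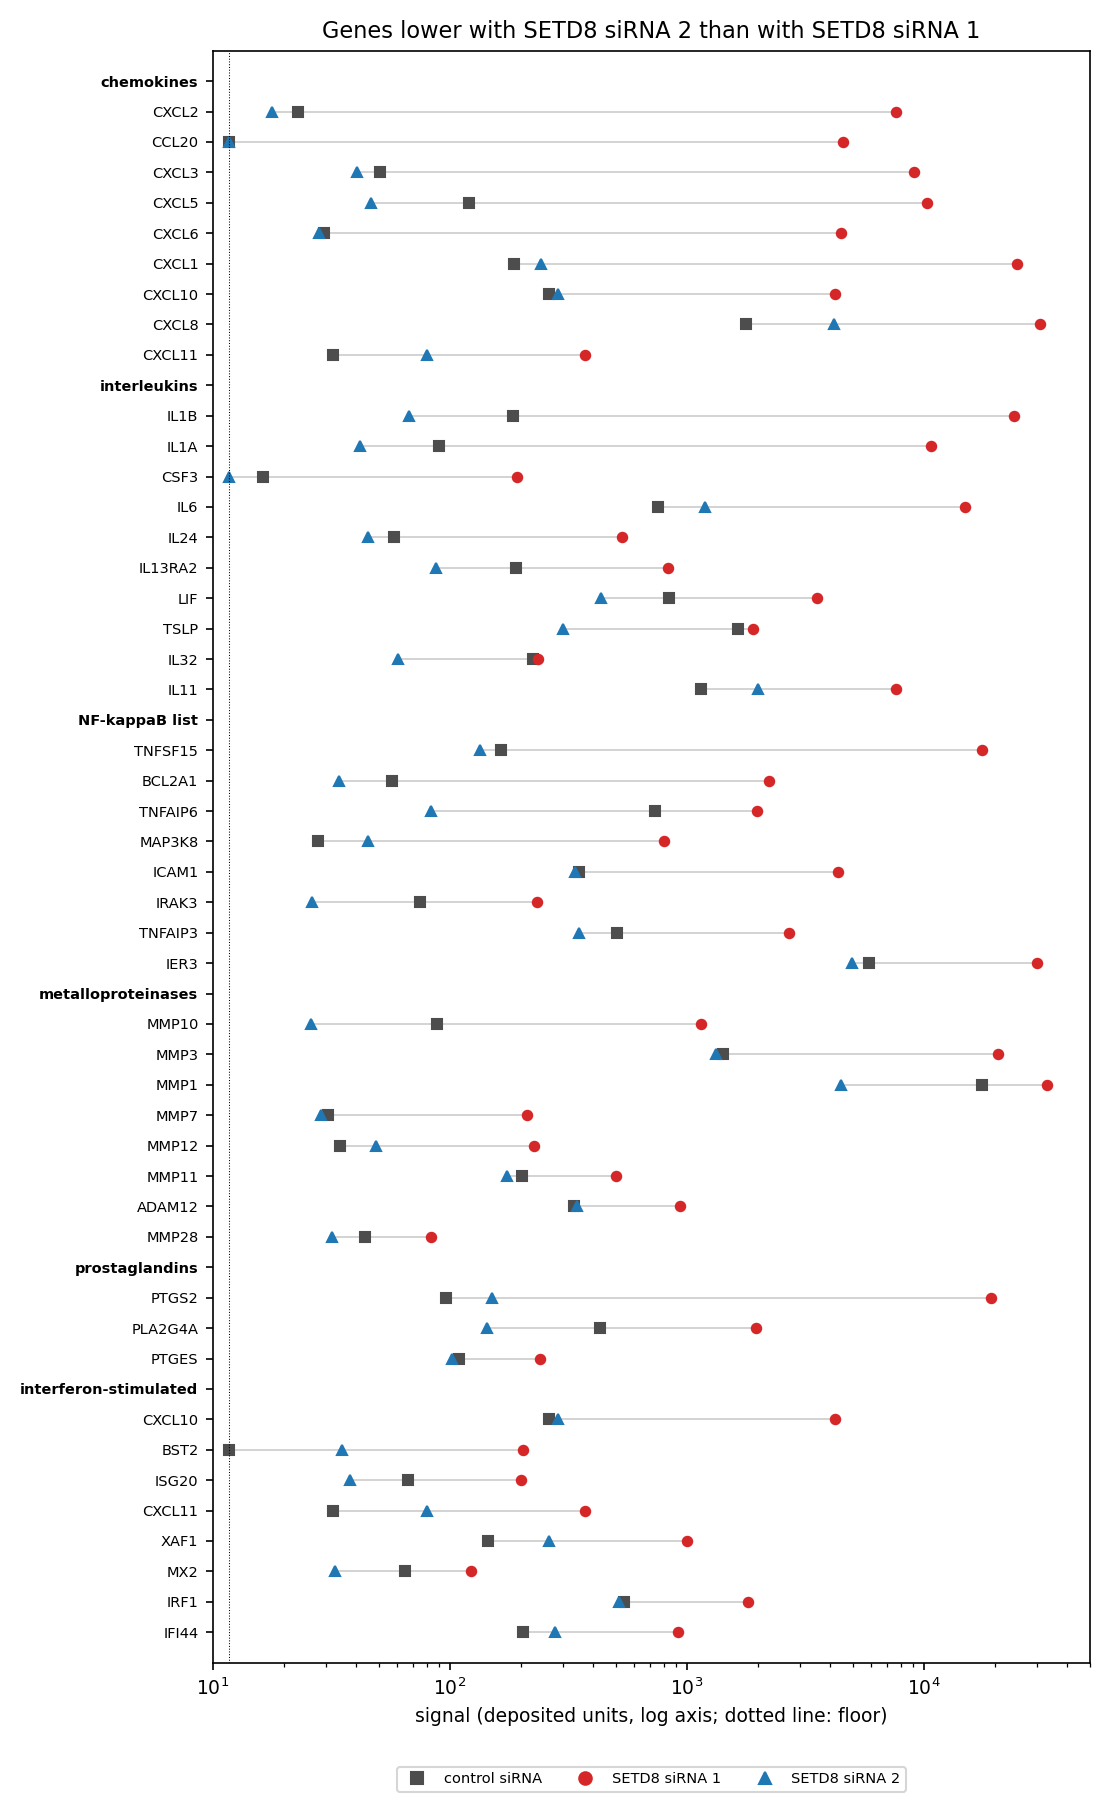
Signal (horizontal, log axis) on the control, SETD8 siRNA 1 and SETD8 siRNA 2 arrays, 1 array each, of the genes farthest apart in each of 6 lists, all at least 2-fold lower with siRNA 2; the dotted line is the floor of 11.7, to which lower signals were set. For chemokines the siRNA 2 array lies near the control array while the siRNA 1 array is far higher, whereas for TSLP and IL32 it is the siRNA 2 array that stands apart.

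Interferon-stimulated genes encode antiviral proteins and are switched on through STAT and IRF factors. Of 66 tested, 20 were at least 2-fold lower with siRNA 2, 0 were higher, and 52 were below 0. The median of -0.57 was past 0.5 in size, but it was -0.38 over the 44 members above the 75th percentile of signal. Against the control, with siRNA 1 25 were at least 2-fold higher and 1 was lower, where 6.84% and 7.09% of all genes were, and with siRNA 2 11 were higher and 0 lower, where 5.52% and 5.96% were. Both comparisons share the control array, and their difference was not tested.

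BST2, the membrane tether that holds back budding viruses, had 6.6, 202.7 and 34.9 (5.81-fold), and XAF1, an interferon-induced promoter of cell death, had 144.0, 1001.4 and 261.7 (3.83-fold). IFI27 had 92.3, 1273.4 and 450.5 (2.83-fold) and IFI44 had 203.8, 914.6 and 278.3 (3.29-fold). The transcription factor IRF1 had 539.6, 1816.4 and 516.8 (3.51-fold). In BST2, XAF1 and IFI27 the siRNA 2 array lay between the control and siRNA 1, and in IRF1 it lay at the control. A few members were below the control with siRNA 2, such as the exonuclease ISG20 (66.2, 199.6 and 37.8) and MX2 (64.3, 122.4 and 32.8). The antigen presentation genes HLA-C and B2M, at 1.21-fold and 1.01-fold, and the bright antiviral genes IFITM2 and IFITM3, at 1.33-fold and 1.08-fold, were not 2-fold apart.

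Of 17 tested double-stranded RNA sensors and interferon genes, 2 were lower and 1 was higher, with a median of -0.41. Over all genes 6.36% were lower and 6.07% higher. The counts lie near those shares, so the genes named are single members. IFIH1, the sensor MDA5, had 177.0, 500.2 and 137.2 (3.65-fold). EIF2AK2, the kinase PKR, had 2041.1, 2596.0 and 1948.7 and was not 2-fold apart. CGAS, the sensor of DNA in the cytosol, was 2.08-fold lower (214.9, 192.5 and 92.5) and under 2-fold with its probe sets averaged (-0.63). IFNB1, the interferon beta gene, was below the filter.

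Next, 2 promoters of this list are printed for the pair of matches that each carries to the core of the interferon response element (GAAA, any 2 bases, GAAA), again as the 120 bases before the start.
IFI27 (chr14:94110616-94110735, plus strand): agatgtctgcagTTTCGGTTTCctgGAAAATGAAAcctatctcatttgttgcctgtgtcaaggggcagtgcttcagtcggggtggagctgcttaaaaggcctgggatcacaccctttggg
IFIT3 (chr10:89332409-89332528, plus strand): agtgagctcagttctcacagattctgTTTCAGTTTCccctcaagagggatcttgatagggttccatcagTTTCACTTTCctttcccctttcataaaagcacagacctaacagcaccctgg
The capitals are the 2 matches in each, the first 108 and 94 bases before the start, on either strand. IFIT3, an antiviral RNA-binding protein, had signals of 1426.0, 2800.8 and 1276.4 (2.19-fold). Over 250 bases, 11 of 18 promoters (61.1%) of the interferon-stimulated genes that were at least 2-fold lower held the motif, against 3.71% of all genes and 2 of 16 (12.5%) of the chemokine and interleukin genes. The NF-kappaB motif was found in 6 of the 18 (33.3%), CXCL10 being among the genes with both. The list was chosen as interferon-stimulated, and the share in its members that were not lower was not computed. These shares therefore do not single out the genes that differed.

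Immediate early genes, which respond to growth factors within minutes, and the feedback inhibitors of MAP kinase went both ways. Of 41 tested, 14 were at least 2-fold lower and 6 at least 2-fold higher with siRNA 2, with a median of -0.38. FOS had 13.1, 214.6 and 11.3 (at least 18.3-fold lower), the nuclear receptor NR4A3 had 284.6, 1211.3 and 102.3 (11.8-fold), EGR3 had 44.5, 1289.2 and 209.6 (6.15-fold), and EGR1 had 2557.6, 8698.7 and 2651.8 (3.28-fold). The phosphatases DUSP4 (6.11-fold) and DUSP6 (2.28-fold), which switch off ERK, were lower. DUSP1, a phosphatase with preference for p38 and JNK, was 2.80-fold higher (3198.4, 3711.7 and 10375.2). The Kruppel-like factors KLF2 and KLF4 were 4.29-fold and 5.08-fold higher, KLF4 with 720.4 in the control, 206.3 with siRNA 1 and 1047.0 with siRNA 2. JUN stood at 1.03-fold.

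Of 11 EGF family genes 1 was lower and 2 were higher. Over all genes 6.36% were lower and 6.07% higher. EREG, an EGF receptor ligand, had 949.9, 18658.9 and 2328.5 (8.01-fold lower), whereas EGF itself, at 68.3, 22.7 and 159.0, was higher by 2.81 on the log2 scale, and ERBB2 2.16-fold higher (0.81 on the log2 scale with probe sets averaged). Of 33 other growth factors and receptors 5 were lower and 7 higher, with a median of -0.20. GDF15, a stress-induced cytokine, had 1642.9, 22452.5 and 1748.5 (12.8-fold lower), and VEGFA, the angiogenic factor, had 2506.6, 8027.2 and 1913.0 (4.20-fold lower). MET, the receptor for hepatocyte growth factor, had 2146.3, 272.2 and 3223.4 (11.8-fold higher), and its second probe set had 0.83. FGF1 had 324.1, 88.4 and 999.1 (11.3-fold higher), and FGF5 had 1616.2, 361.1 and 1664.0 (4.61-fold higher). MET and FGF5 were near the control with siRNA 2 and far below it with siRNA 1, and FGF1 was also more than 2-fold above it with siRNA 2.

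ETS factors, which carry MAP kinase signals to DNA, had 4 of 19 tested members lower and 0 higher, where 6.36% and 6.07% of all genes were. EHF, an epithelial member of the family, had 13.9, 4156.5 and 596.9 (6.96-fold), above the control with both siRNAs, and its second probe set had -0.56. ETV4 was 4.33-fold lower (77.6, 199.0 and 46.0). ETV1 and ETS2 were 2.41-fold and 2.14-fold lower, both under 2-fold with probe sets averaged (-0.70 each). ETS1 and ELK3 were not 2-fold apart, though the second probe set of ETS1 had -1.07.

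Genes of the contractile apparatus were taken with other SRF and YAP targets. Of 39 tested, 33 were above 0, 9 were at least 2-fold higher and 1 was at least 2-fold lower, with a median of 0.52. The median against the control was -0.21 for siRNA 1 and 0.30 for siRNA 2, so that the siRNAs lay on either side of it. ANKRD1, a YAP target of stretched muscle, had 55.1, 72.0 and 1725.7 (24-fold), and ACTC1, cardiac actin, had 64.1, 60.4 and 640.5 (10.6-fold). In both the siRNA 2 array alone stood apart.

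CNN1, the smooth muscle protein calponin, had 2442.2, 1084.1 and 5749.6 (5.30-fold), TAGLN, the actin-binding protein SM22, had 14190.0, 6804.4 and 22028.5 (3.24-fold) and LMOD1, an actin nucleator, had 265.5, 152.4 and 780.7 (5.12-fold). These 3 were lower than the control with siRNA 1 and higher with siRNA 2. ACTG2, smooth muscle gamma actin, had 18785.6, 10810.7 and 27381.4 (2.53-fold), or 0.67 on the log2 scale with its probe sets averaged. The brightest members, among them the tropomyosin genes TPM1 (1.31-fold) and TPM2 (1.26-fold) and the caldesmon gene CALD1 (1.20-fold), were under 2-fold on their brightest probe sets. The next brightest probe sets had larger differences, 0.69, 1.09 and 1.67 for CALD1 and 0.59, 0.77 and 1.03 for TPM1. MYOCD, the SRF cofactor myocardin, went the other way, with 514.3, 850.9 and 342.1 (2.49-fold lower).

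The promoters of ACTC1 and ACTG2 are shown for the CArG box, the element bound by SRF, in capitals within the 120 bases before the start.
ACTC1 (chr15:34795550-34795669, minus strand): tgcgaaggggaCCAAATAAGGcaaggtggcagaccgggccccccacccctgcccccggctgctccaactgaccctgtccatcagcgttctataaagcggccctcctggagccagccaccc
ACTG2 (chr2:73892888-73893007, plus strand): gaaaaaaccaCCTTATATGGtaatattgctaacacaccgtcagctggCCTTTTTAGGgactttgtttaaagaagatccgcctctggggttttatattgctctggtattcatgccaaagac
The box begins 109 bases before the start in ACTC1, and the first of 2 boxes begins 110 bases before it in ACTG2. Within 250 bases it was found in 3 of 7 promoters (42.9%) of the contractile genes that were at least 2-fold higher, the third being LDB3, against 1.44% of all genes. ANKRD1 had no box in this window and held TGANTCA, the AP-1 motif, which 8.06% of all genes hold. The list was chosen to hold SRF targets, and the share of the box in its other members was not computed.

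ID genes and the feedback of bone morphogenetic protein (BMP) signalling differed in both directions. Of 26 tested, 8 were higher and 5 lower with siRNA 2, with a median of 0.38 that was 0.13 without the filter. The ligand BMP2 had 1034.5, 17049.2 and 1370.8 (12.4-fold lower) and BMP4 had 407.3, 910.0 and 165.7 (5.49-fold lower). The antagonist NOG, noggin, had 689.6, 135.4 and 4505.9 (33.3-fold higher) and BMPER, which binds BMPs outside the cell, had 161.6, 117.5 and 841.8 (7.16-fold higher). The bright antagonist genes GREM1 (1.30-fold lower) and FST (1.26-fold higher) were not 2-fold apart. All 4 ID genes, inhibitors of helix-loop-helix factors and usual targets of BMP receptors, were higher with siRNA 2. ID1 had 1649.8, 1764.1 and 9883.9 (5.60-fold), ID2 had 2546.3, 1034.1 and 7136.9 (6.90-fold), ID3 was 3.11-fold and ID4 6.34-fold higher. The signal carriers went opposite ways, since SMAD1 had 2129.9, 6164.7 and 655.8 (9.40-fold lower) and SMAD9 had 1242.8, 302.2 and 1592.5 (5.27-fold higher). ATOH8, 8.25-fold higher, had -0.70 when probe sets shared between genes or transcripts were left out.

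Pregnancy-specific glycoprotein genes, a family on chromosome 19 best known from the placenta, were the list with the highest median, 2.30. All 9 tested members were at least 2-fold higher with siRNA 2. PSG5 had 671.6, 173.1 and 2117.8 (12.2-fold), PSG9 had 663.7, 250.0 and 1818.3 (7.27-fold), PSG4 had 1670.8, 813.3 and 4182.7 (5.14-fold) and PSG1 had 1110.4, 507.1 and 2489.5 (4.91-fold). The range over the 9 was 1.08 for PSG3 to 3.61 for PSG5. Against the control, 6 were at least 2-fold lower with siRNA 1 and 7 at least 2-fold higher with siRNA 2, so that the control lay between them. Single members are uncertain, since their sequences hardly differ. Without shared probe sets only PSG6 was left, with -0.51 in place of 3.18.

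Of 24 tested Wnt genes, 7 were higher and 5 lower with siRNA 2, and the median of -0.19 became 0.69 above the 75th percentile of signal. Among the secreted antagonists DKK1 had 4462.2, 750.5 and 8349.4 (11.1-fold) and SFRP1 had 14402.3, 3539.3 and 11722.5 (3.31-fold), both higher with siRNA 2. DKK3, the brightest antagonist of the list, had 23183.3, 24933.8 and 28622.6 and was not 2-fold apart. The receptors FZD7 and FZD2, at 2.70-fold and 2.36-fold, and the ligand WNT16 (3.92-fold) were higher too. SFRP1 and both receptors were below the control with siRNA 1 and within 2-fold of it with siRNA 2 on their brightest probe sets. The second probe set of SFRP1 had 5040.6, 557.1 and 2198.1, so there siRNA 2 was also below the control (-1.20), and the next had -0.98. The transcription factor LEF1 was 13.3-fold lower (181.7, 897.5 and 67.5) and the feedback gene AXIN2 3.16-fold lower, but their second probe sets had 1.75 and 0.82, and LEF1 had -0.89 with probe sets averaged.

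Matrix genes differed in both directions. POSTN, periostin, a matrix protein of injured tissue, had 11197.1 in the control, 24523.5 with siRNA 1 and 412.1 with siRNA 2, and was 59.5-fold lower with siRNA 2, with -7.33 on its second probe set. COL10A1, a collagen of hypertrophic cartilage, had 49.8, 2751.1 and 42.0 (65.5-fold lower). COL5A3 was 9.46-fold lower (236.9, 507.3 and 53.6) and COL7A1, the anchoring fibril collagen, 3.31-fold lower (625.7, 1972.6 and 596.8). For POSTN and COL5A3 the signals with the SETD8 siRNAs lay on either side of the control, and for COL10A1 and COL7A1 siRNA 1 alone was high. The fibrillar collagens COL1A1 and COL1A2, at 1.07-fold each, and fibronectin, FN1, at 1.06-fold, were close on their brightest probe sets. The COL1A1 signal of 36638.9 was the highest on the siRNA 1 array. COL3A1, another fibrillar collagen, had 25413.6, 26989.2 and 17971.4, a difference of -0.59, with -0.79 and -1.02 on its next brightest probe sets.

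On the higher side of the matrix list EFEMP1, a fibulin, had 4078.5, 984.4 and 7750.8 (7.87-fold), DCN, decorin, had 20075.4, 7745.9 and 22971.2 (2.97-fold) and COL14A1 had 91.4, 29.1 and 162.2 (5.57-fold). In each, the siRNA 1 array was the lowest of the 3. In all, 6 of 27 collagens were lower and 2 higher (median -0.25), and 7 of 48 other matrix genes were lower and 8 higher (median 0.07). Over all genes 6.36% were lower and 6.07% higher. The plot of the higher genes by array shows which siRNA stood apart in each.

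**Figure D5:**
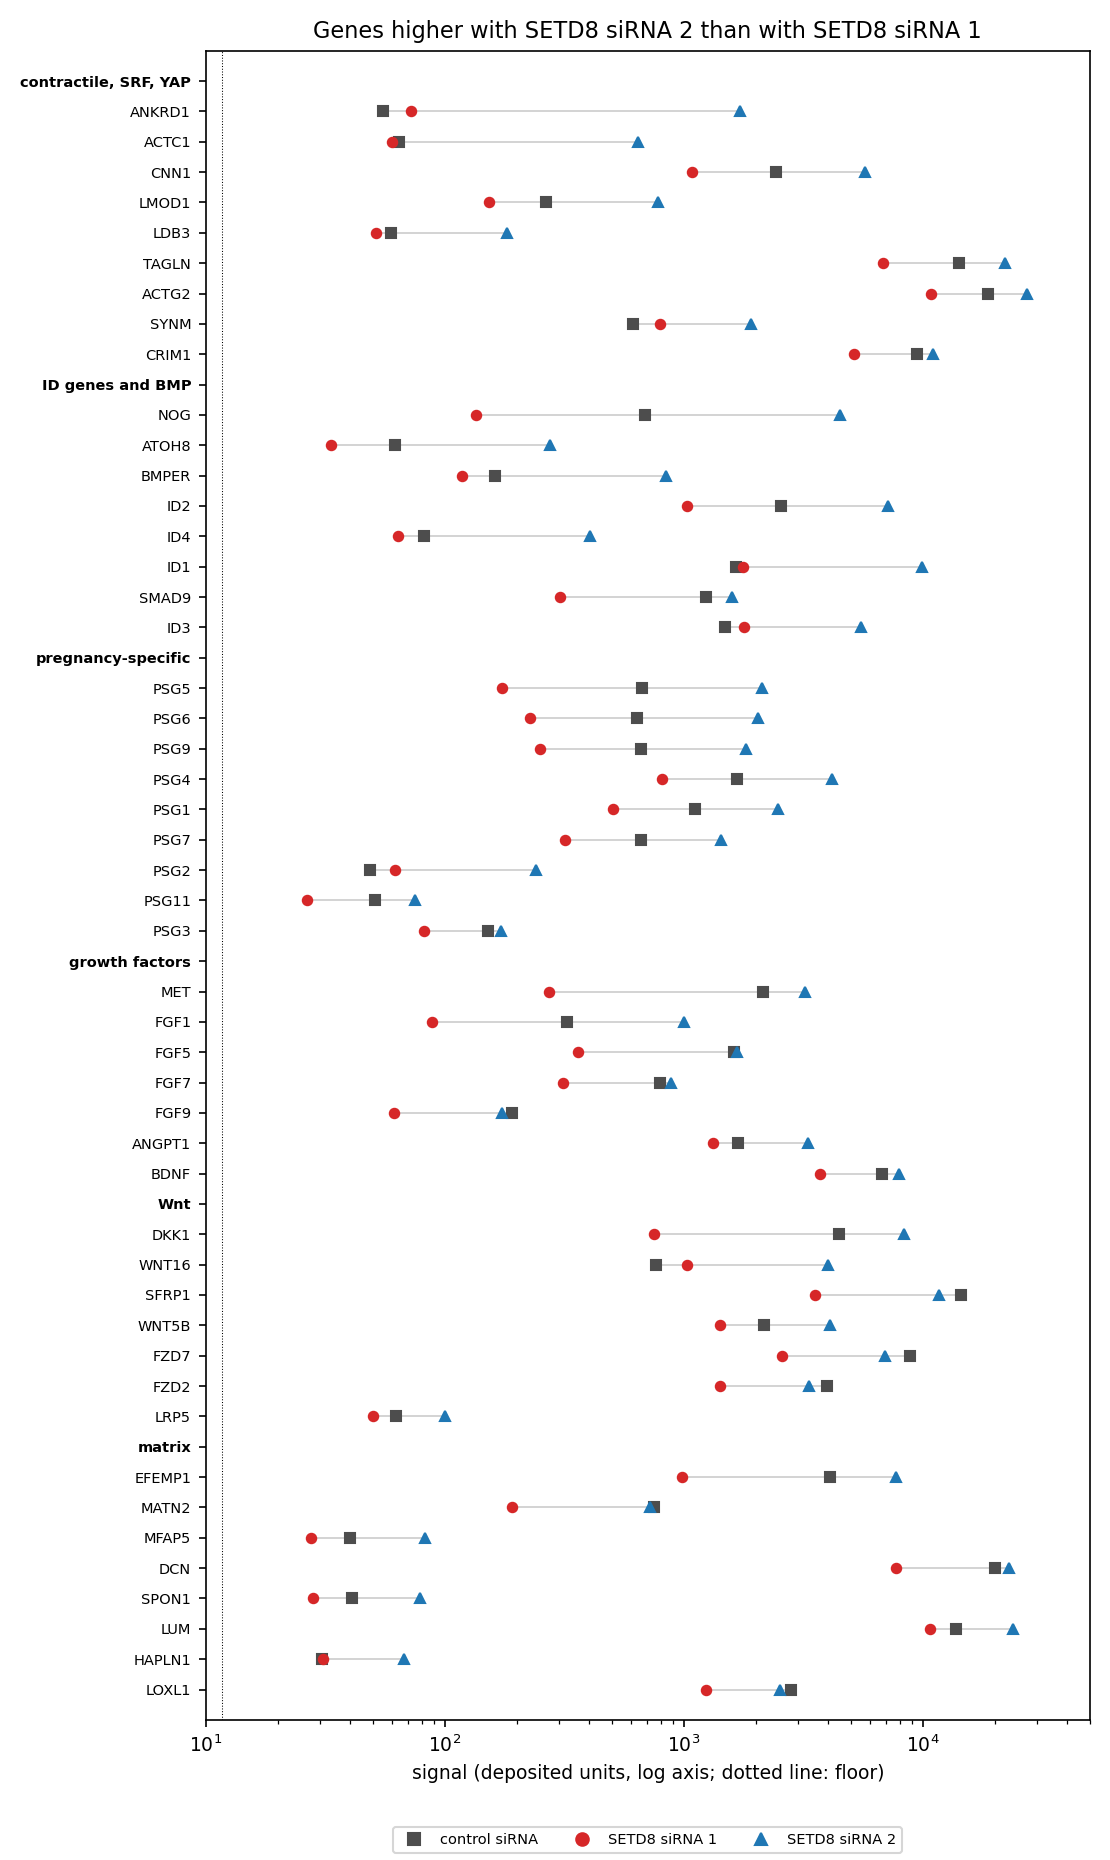
Signal (horizontal, log axis) on the control, SETD8 siRNA 1 and SETD8 siRNA 2 arrays, 1 array each, of the genes farthest apart in each of 6 lists, all at least 2-fold higher with siRNA 2; the dotted line is the floor of 11.7. For ANKRD1, ACTC1 and ID1 the siRNA 2 array alone stands apart, for MET, DKK1 and SFRP1 the siRNA 1 array lies lowest, and for the PSG genes the control lies mostly between the SETD8 siRNAs.

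Among TGF-beta, IGF, Notch and adhesion genes, single members were far apart while the list medians were small. INHBE, an activin subunit, was 12.8-fold lower (225.1, 214.4 and 16.7) and INHBA, the subunit of activin A, 2.09-fold lower (9809.4, 32485.3 and 15565.6). TSC22D1, 2.58-fold lower, had 0.42 without shared probe sets. IGFBP1, an IGF carrier protein, had 23.5, 1165.0 and 23.0 (50.7-fold lower), and its other probe set lay at the floor, while IGFBP3 had 9989.8, 10075.4 and 22949.6 (2.28-fold higher). HEY1 and HES1, targets of Notch, were 6.68-fold and 3.74-fold lower. The integrin gene ITGB8 had 808.2, 2207.1 and 80.3 (27.5-fold lower) and ITGA6, part of a laminin receptor, had 3268.1, 1674.3 and 5550.5 (3.32-fold higher). The medians were -0.06 over 28 TGF-beta, -0.08 over 15 IGF, 0.01 over 15 Notch and 0.11 over 27 adhesion genes. Without shared probe sets the Notch median was -0.51, over 7 genes.

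Of 54 G2 and mitosis genes, 0 were 2-fold apart in either direction, the differences ran from -0.98 to 0.95, and the median was 0.22. Against the control, 53 were at least 2-fold lower with siRNA 1 and 52 with siRNA 2. The medians against the control were -2.87 with siRNA 1 and -2.55 with siRNA 2. Among bright members, which moved less, the securin gene PTTG1 had 11698.7, 4406.0 and 3170.3. The checkpoint gene BUB3, with 11843.0, 6418.9 and 8081.9, was an exception, under 2-fold below the control with both siRNAs (-0.88 and -0.55). Of 49 DNA replication genes, 40 were at least 2-fold lower than the control with each siRNA, and between the SETD8 siRNAs 3 were higher and 1 was lower, with a median of 0.21. The 3 were CDT1, DTL and CCNE2, which encodes cyclin E2 and had 1216.5, 166.5 and 362.2, and none was 2-fold apart with probe sets averaged (0.63 for CCNE2).

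Of 14 tested cyclin-dependent kinase inhibitors, D cyclins and partners, 3 were higher and 2 lower with siRNA 2, with a median of 0.08, where 6.07% and 6.36% of all genes were higher and lower. CDKN2B, which encodes the inhibitor p15, had 742.7, 7373.0 and 1230.0 (5.99-fold lower with siRNA 2), and CDKN1A, which encodes p21, had 6063.7, 15759.9 and 8246.7 and was under 2-fold apart (1.91-fold). CCND2, which encodes cyclin D2, had 414.5, 751.7 and 5348.7 (7.12-fold higher), and CDK6, a partner of D cyclins, had 3977.1, 2467.2 and 5527.6 (2.24-fold higher). CDKN2B stood apart from the control with siRNA 1 and CCND2 with siRNA 2. Of 29 p53 targets, 3 were lower and 0 higher: GDF15, described above, the kinase PLK2 (3.64-fold; 5697.7, 10040.9 and 2760.5) and the cell death gene BAX (2.09-fold, and -0.98 with probe sets averaged). The median was -0.35.

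The amino acid response driven by ATF4 had 9 of 39 tested members lower with siRNA 2, 0 higher, and a median of -0.37, which was -0.54 without shared probe sets (22 genes). Here the siRNA 2 array was below the control: 9 members were at least 2-fold lower than the control with siRNA 2 and 2 with siRNA 1. ASNS, asparagine synthetase, had 6732.5, 4444.2 and 1628.2 (2.73-fold), DDIT4, an inhibitor of mTOR signalling, had 3181.9, 4343.2 and 689.7 (6.30-fold), and CTH, which makes cysteine, had 657.9, 1223.8 and 248.5 (4.92-fold). TRIB3 and DDIT3, stress genes of this pathway, were 3.37-fold and 3.21-fold lower. The tRNA synthetase genes GARS1, IARS1 and NARS1 were not 2-fold apart, at 1.01-fold, 1.11-fold and 1.17-fold.

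Of 32 endoplasmic reticulum genes 2 were lower and 0 higher, of 31 sterol and fatty acid genes 3 and 0, and of 25 NRF2 targets 2 and 0. Over all genes 6.36% were lower and 6.07% higher. The lower counts of these lists, and of the lysosome list below, lie near the first share, so the genes named are single members. INSIG1, the sterol-sensing retention protein, was 3.46-fold lower (4763.7, 7574.1 and 2191.6), and the cholesterol exporters ABCA1 and ABCG1 were 2.35-fold and 2.94-fold lower. Among heat shock genes CRYAB, a small chaperone of muscle, had 227.5, 54.1 and 506.3 (9.36-fold higher), and HSPB1 was 2.74-fold higher. Of 35 lysosome genes 3 were lower, led by the protease CTSS, cathepsin S (11.2-fold; 133.0, 1701.5 and 151.6), and of 34 glycolysis and hypoxia genes 5 were lower and 2 higher. Of 13 genes induced by glucocorticoids 3 were lower, among them HSD11B1, which regenerates cortisol (5.87-fold; 69.1, 153.9 and 26.2), and 1 was higher. None of these list medians reached 0.5 in size.

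Housekeeping lists give the agreement between the arrays for their own genes only. Their brightest members, such as RPL27 with 32526.0 and 32828.7 on the SETD8 siRNA arrays, lay near the highest signals of 36638.9 and 36667.4. Their spread does not carry over to dim genes, since 19.9% of genes in the dimmest quartile were at least 2-fold apart. All 48 cytosolic ribosomal protein genes were within 2-fold, with a median of -0.04 and an SD over members of 0.14, and all 53 respiratory chain genes were within 2-fold, with a median of -0.11 and an SD of 0.19. Of 53 replication-dependent histone genes 21 were tested, 2 of them higher and 0 lower, with a median of 0.17. H1-2, a linker histone, had 1074.6, 1098.0 and 2315.2 (2.11-fold), and H2BC3 was 2.42-fold higher at low signal. Single histone genes are uncertain, since their sequences hardly differ. Of 11 HOX genes HOXB8 was 3.44-fold higher (130.9, 216.2 and 744.4; 0.99 with probe sets averaged) and HOXC5 3.21-fold lower at low signal.

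The genes farthest apart outside the lists came from several classes. Higher with siRNA 2 were OXTR, the oxytocin receptor, with 1952.3, 108.5 and 3058.2 (28.2-fold), SYNPO2, an actin-bundling protein, with 207.2, 86.8 and 1686.3 (19.4-fold), and the neuronal adhesion gene NRXN3 with 403.7, 85.1 and 1002.6 (11.8-fold). TMEM178B had 56.3, 27.3 and 2192.8 (80.3-fold), ADIRF 22.3, 20.2 and 548.6 (27.2-fold) and C7, a complement component, was at least 19.6-fold higher (132.8, 3.4 and 229.4). For OXTR the siRNA 1 array was low, for ADIRF the siRNA 2 array was high, and for SYNPO2, NRXN3 and TMEM178B the control lay between. The others of the 20 largest were TSPAN10 (27-fold), DNAJC6 (16.1-fold), ATP10A (15.6-fold), COBLL1 (11.1-fold) and SLC38A4 (10.3-fold).

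On the lower side, GABRA2, a GABA receptor subunit, had 119.7, 3119.2 and 70.7 (44.1-fold), CHST2, a sulfotransferase, had 200.3, 4098.4 and 168.1 (24.4-fold), and TCIM had 159.1, 5741.2 and 286.5 (20-fold). In these 3 the siRNA 1 array alone was high. CRIP1, a LIM domain protein, had 131.1, 312.7 and 13.4 (23.3-fold), apart from the control on both sides. Chosen after their values were seen, 3 more genes of the inflammatory response had the order of the chemokines: NAMPT (1747.8, 9256.7 and 1228.1), an enzyme of NAD synthesis, KYNU (618.9, 5382.2 and 461.8), of tryptophan breakdown, and MME (790.7, 9113.3 and 605.6), a peptidase. SOCS3, the inhibitor of cytokine receptors, instead had 936.4, 1018.2 and 272.6, and HRAS, the GTPase, had 7695.7, 11748.1 and 2552.8, both lowest with siRNA 2.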

How the data were processed

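RNA from IMR-90 cells was profiled on 3 arrays, 1 per siRNA, and nothing in the labels says whether they came from separate cultures. Per the submitters' processing notes, the authors used MAS5, in a version not given in the sources used here, and deposited an intensity on a linear scale for each probe set. The trimmed mean was 497.3, 497.2 and 497.2 and the median 46.2, 45.3 and 44.9 on the control, SETD8 siRNA 1 and SETD8 siRNA 2 arrays, so no further scaling was applied; a shift of all genes would be hidden. Of 54613 probe sets, 41091 had 1 gene symbol in the platform annotation (41037 matched RefSeq symbols), 1801 had several and 11721 were not listed. Signals under the 25th percentile (11.7; 24.2% to 25.7% of each array) were set to it. Folds against a lower signal are therefore bounds, written "at least". Each gene took its brightest probe set over both SETD8 siRNA arrays (10523 genes had over 1), and the filter used the mean of the log2 values of those arrays. No model was fitted, since 1 array per siRNA leaves no replicate error, and the number of arrays limits the precision. A list median of 0.5 or more in size was read as apart from the others, a limit that some alternatives crossed.

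The rule for named genes took KMT5A, the 20 genes farthest apart in each direction with a higher signal of at least 200 and no sign conflict between the brightest 2 probe sets, up to 8 members per list at least 2-fold apart and the 4 brightest, 351 genes in all. The members and lists were chosen with earlier results of these data known. Named outside the rule, after their values were seen, were BMP4, EGR1, MMP2, MMP9, MMP16, MMP19, MMP25, FZD2, ID1, ID3, IFI27, IFIT3, IL18, IL32, IL6R, NFKB1, NFKBIA, PSG3, RELB, SMAD9, CDH1, CDH5, EMCN, IFNB1, HRAS, KYNU, MIR146A, MME, NAMPT and SOCS3, and the genes of the closing section outside the lists. Promoter and microRNA sequences come from RefSeq (GRCh38.p14). Searched on both strands, the NF-kappaB motif was GGG, a purine, any 2 bases, 2 pyrimidines and CC, and the CArG box was CC, 6 bases of A or T and GG; a promoter could hold several motifs. Alternatives were other scalings, floors, filters, fold limits and probe-set choices. Python 3.11.15, numpy 2.4.6, pandas 2.3.3 and matplotlib 3.10.9 were used, and the code was tested on simulated data.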

Additional observations from a re-analysis of the deposited data

Results flagged for a closer look

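Among the 40 genes with the largest differences, 18 lay at least 2-fold from the control array in opposite directions with the SETD8 siRNAs, against 81 of the 1532 genes at least 2-fold apart; genes chosen for a large difference have more room to do so. Each siRNA stood on 1 array, and the difference was not tested for any of them. Higher with siRNA 2 than with siRNA 1, on the log2 scale, were the chemokine gene CXCL12 by 6.51, TMEM178B by 6.33, the BMP antagonist gene NOG by 5.06, TSPAN10 by 4.75, SYNPO2 by 4.28, the chemokine scavenger gene ACKR4 by 4.14 and ATP10A by 3.96. PSG5 followed with 3.61, NRXN3 with 3.56, FGF1 with 3.50 and COBLL1 with 3.48. CXCL12 was mainly low with siRNA 1 (-5.08 against the control, 1.44 with siRNA 2), whereas TMEM178B was mainly high with siRNA 2 (-1.04 and 5.28).

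Lower with siRNA 2 were IL1B (-8.49), CXCL5 (-7.79), POSTN (-5.90), MMP10 (-5.47), ITGB8 (-4.78), TNFAIP6 (-4.56) and CRIP1 (-4.54). IL1B and CXCL5 were mainly high with siRNA 1 (7.02 and 6.41 against the control) and a little low with siRNA 2 (-1.47 and -1.38). POSTN, ITGB8, TNFAIP6 and CRIP1 had the larger departure with siRNA 2, at -4.76, -3.33, -3.13 and -3.29. All these directions were read from each gene's brightest probe set. The second was also past 2-fold on both sides for SYNPO2, NRXN3, IL1B, POSTN and TNFAIP6. It was not for TMEM178B, PSG5, FGF1, COBLL1, TSPAN10, ITGB8, CXCL12 (-2.63 and 0.36) or CXCL5 (7.56 and 0.0). ATP10A was above the control with both there (1.19 and 1.71). NOG, ACKR4, MMP10 and CRIP1 had 1 probe set.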

How the results depend on the processing

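No paired analysis was possible because each siRNA stands on 1 array and no replicate exists to block on or leave out. The genes at least 2-fold higher and lower with siRNA 2 numbered 343 and 355 with a filter at the 75th percentile and 1579 and 1714 with no filter, and 1733 and 1663 genes passed a limit of 1.5-fold and 275 and 345 one of 3-fold. Each count was within 1.5 times its main value in the other 7 alternatives. Genes 2-fold from the control with siRNA 1 only numbered 283 at the 75th percentile and 1293 with no filter, with siRNA 2 only 115 and 1018, and with neither 230 and 742. Those apart in opposite directions numbered 32 at the 75th percentile, 40 with the mean over probe sets and 53 without shared probe sets. Those apart in the same direction numbered 38 at the 75th percentile, 60 with the floor at the median, 54 with the mean over probe sets and 66 with a pseudocount of 16. Of the list medians under all alternatives, 382 moved by no more than the SD over the list's members, but some of these crossed 0.5 in size. At the 75th percentile the interferon median was -0.38, the metalloproteinase median -0.29, the Wnt median 0.69 and the epithelial median 0.54. With the mean over probe sets the metalloproteinase median was -0.45 and the epithelial median 0.89, without shared probe sets the Notch median was -0.51 and the ATF4 median -0.54, and with no filter the chemokine median was -0.34 and the endothelial median 0.00. The leukocyte median, of few genes, was under 0.5 in size in several alternatives. The endothelial median became 0.67 at the 75th percentile (1 gene) and 0.42 with the mean over probe sets, the leukocyte median -0.04 with no filter, and the PSG median -0.51 without shared probe sets, where 1 gene was left. Without shared probe sets ATOH8 had -0.70, PSG6 -0.51, TSC22D1 0.42 and KRT7 0.05, and KRT7 had 0.05 with the probe set chosen over all 3 arrays. Apart from those values, 2805 gene values stayed in place and 123 moved. A change of sign was looked for only in genes at least 2-fold apart in the main comparison, so smaller differences may have changed sign. Where fewer genes or probe sets entered, that is the alternative's construction; otherwise the cause was not tested. Low signals limit the folds of dim genes.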

Other observations

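Beyond the lists, a few gene families grouped by symbol after their values were seen held members that differed. Of 5 protocadherin beta genes, adhesion genes best known from neurons, 4 were at least 2-fold higher with siRNA 2, with a median difference of 1.46. PCDHB14 had signals of 109.3 in the control, 75.5 with siRNA 1 and 302.9 with siRNA 2, PCDHB16 had 81.4, 73.5 and 232.9, and PCDHB2 had 49.5, 65.7 and 181.2. All 5 were in the dimmest quartile of signal, where 19.9% of genes were at least 2-fold apart and 302 of 3084 were higher with siRNA 2. The genes are near-identical copies, so single members are uncertain. Of 4 BEX genes, 3 were at least 2-fold lower, led by BEX2 (19.8, 144.7 and 45.4) and BEX4 (504.2, 1114.3 and 379.4), while the bright BEX3 had 22117.6, 23806.9 and 25581.6. Of 14 serpins, protease inhibitors, 4 were lower and 0 higher, SERPIND1, the thrombin inhibitor heparin cofactor, by 15.6-fold (71.7, 636.5 and 40.9) and SERPINF1 by 3.62-fold (800.6, 1088.9 and 301.2). SERPIND1 was high with siRNA 1 alone and SERPINF1 low with siRNA 2 alone. Over all genes 6.07% were higher and 6.36% lower. Of 231 solute carriers 20 were higher and 17 lower, and of 384 ZNF zinc finger genes 6 were higher and 11 lower, fewer than the share over all genes would give.

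Among long noncoding RNAs, MALAT1, a nuclear transcript, had 7092.3, 1815.1 and 9342.6 (5.15-fold higher with siRNA 2, and 2.12 on its second probe set), low with siRNA 1 alone. MEG3, an imprinted transcript, had 508.9, 372.6 and 1730.0 (4.64-fold higher, and 1.38 on its second probe set), high with siRNA 2 alone. RELN, which encodes the matrix protein reelin, had 1569.8, 155.1 and 1222.8, low with siRNA 1 alone. TENM1, a teneurin, had 93.8, 87.7 and 1191.2, high with siRNA 2 alone, though its second probe set, below the filter, had -0.30. ALDH1A3, an enzyme of retinoic acid synthesis, had 375.6, 1067.1 and 81.6, apart from the control on both sides. Of 4078 probe sets above the filter without a single gene symbol, 11.4% were at least 2-fold apart, 272 of them higher and 191 lower with siRNA 2.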
